A study of Mus musculus with 17 samples.

Results

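The 10 Notch pathway genes followed here, all active in arterial endothelium, were measured by RNA sequencing of mouse bone marrow endothelial cells: the receptors Notch1 and Notch4, the ligands Dll1, Dll4, Jag1 and Jag2, the target genes Hey1, Hey2 and Hes1, and the DNA-binding factor Rbpj. They were chosen by name, and all 10 were found among the 49585 Ensembl gene identifiers of the count files. A Notch receptor is cut after it binds a ligand on a neighbouring cell, and its inner part moves to the nucleus and joins RBPJ to switch on genes of the Hey and Hes families. In endothelium the pathway is known for its part in arterial identity and in limiting vessel sprouting, with Dll4 as the main arterial ligand. Endoglin, the product of Eng, is a co-receptor for ligands of the BMP9 and TGF-beta family.

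The 17 libraries came from 2 genotypes and 2 times. The knockout (KO) mice carried floxed Eng alleles and Cdh5:CreERT2, a tamoxifen-activated recombinase driven by an endothelial promoter, which removes exons 5 to 6 of Eng. The other mice are labelled WT, and whether they carried the recombinase is not given in the sources used here. Libraries of both genotypes carry the label of tamoxifen injection, and KO was induced at 8 weeks of age. Cells were taken 2 weeks later (4 WT, 4 KO) or 4 weeks later (5 WT, 4 KO), with females (f) and males (m) in each group. CD45-, Ter119-, CD31+ and Sca1+ cells were sorted from crushed long bones and sequenced by Smart-seq2, a full-length protocol for small inputs. Sca1 is known to be higher on arterial than on sinusoidal endothelium of the marrow. Nothing in the labels says that each library is a separate mouse, so p-values measure the spread between these libraries.

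The libraries held 20477400 to 40882715 counts in genes, and values are given as CPM, counts scaled to the same total in each library. Library quality was lower at 2 weeks, with 10886 to 13583 genes detected and 22.2% to 29.5% mitochondrial counts, than at 4 weeks, with 15996 to 21235 genes and 4.66% to 8.99%. The endothelial markers Pecam1 and Cdh5 were present in all 17 libraries, at 687.5 to 3143 CPM and 190.1 to 758.8 CPM. The 2-week KO males m2 and m3 stood apart, with a summed neutrophil marker level of 4104 and 3150 CPM against 22.7 to 237.5 CPM in the other 6 libraries of that time. The leukocyte marker Ptprc was at 15.6 CPM in m2, 0.247 CPM in m3 and 0 in those 6 libraries. The 4-week libraries fell on 2 sides of the first principal component, which held 46.8% of the variance of 4800 genes: WT f, m1 and m2 with KO m1 and m2 on one side, and WT f3 and m3 with KO f2 and m3 on the other. Summed stromal and mural markers were 1212 to 2782 CPM on the first side and 551.8 to 754.2 CPM on the second. Most of this sum was Rgs5, with a 4-week mean of 1145 CPM in WT and 853.4 CPM in KO. Acta2 came next, at 206.9 and 228.5 CPM. Pdgfrb, another mural marker, overlapped between the sides, at 9.7 to 69.7 CPM and 0.83 to 12.5 CPM. Stromal marker signal below means this sum. In sorted bulk cells, fewer cells of a type and less RNA per cell cannot be told apart.

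Eng was measured first, since it is the targeted gene. It stood at 704.7 to 1307 CPM in WT and 225 to 347.2 CPM in KO at 2 weeks, and at 2400 to 2735 CPM in WT and 273.9 to 1647 CPM in KO at 4 weeks. The genotypes did not overlap at either time, with an exact two-sided permutation p of 0.0286 and 0.00794, the smallest that 4 against 4 and 5 against 4 libraries can give. KO m2 kept the highest 4-week KO level of Eng, 1647 CPM. The log2 fold change was -1.96 ± 0.25 (SE) at 2 weeks and -1.72 ± 0.50 at 4 weeks (edgeR), and neither passed the adjustment over all genes, with adjusted p of 0.612 and 1. With DESeq2, Eng passed at 2 weeks (adjusted p 1.63e-13) and not at 4 weeks (0.381).

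Promoter windows of 8 of the 10 genes were available from RefSeq (build GRCm38.p6), each from 250 bases before to 50 bases after the gene's start. They were searched on both strands for TGGGAA, the core of the sequence that RBPJ is known to bind, whose reverse complement is TTCCCA. The letters occur in 25.6% of all 32851 RefSeq promoter windows of that length. Among the 10 windows of these 8 genes, 3 held a match, in 2 genes: Rbpj itself and Hey2. The Rbpj and Hey2 windows are printed because they are the ones with matches, in capitals, and Dll4 because it was the most abundant ligand and its window had no match; each is written 5′ to 3′ on the gene's strand.
Rbpj, chr5:53590096-53590395, plus strand: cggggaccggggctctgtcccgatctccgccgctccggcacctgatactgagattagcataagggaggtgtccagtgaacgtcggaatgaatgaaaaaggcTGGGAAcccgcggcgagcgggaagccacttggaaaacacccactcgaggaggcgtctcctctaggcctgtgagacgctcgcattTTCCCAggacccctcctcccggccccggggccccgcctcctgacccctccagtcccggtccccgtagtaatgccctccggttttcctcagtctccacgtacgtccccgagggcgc
Hey2, chr10:30842734-30843033, minus strand: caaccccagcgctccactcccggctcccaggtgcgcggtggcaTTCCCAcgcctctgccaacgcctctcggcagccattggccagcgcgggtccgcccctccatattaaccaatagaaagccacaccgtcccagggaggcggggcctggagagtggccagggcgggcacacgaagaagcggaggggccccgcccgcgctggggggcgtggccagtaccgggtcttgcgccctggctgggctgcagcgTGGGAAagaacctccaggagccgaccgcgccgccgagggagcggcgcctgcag
Dll4, chr2:119325534-119325833, plus strand: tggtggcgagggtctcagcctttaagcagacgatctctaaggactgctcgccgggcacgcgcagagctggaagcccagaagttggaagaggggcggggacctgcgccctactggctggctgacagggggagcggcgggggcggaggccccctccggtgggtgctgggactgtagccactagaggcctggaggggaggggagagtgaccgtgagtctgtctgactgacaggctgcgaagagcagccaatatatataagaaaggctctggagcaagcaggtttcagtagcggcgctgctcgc
In the Rbpj window the matches began 149 bases before the start on the gene's strand and 65 bases before it on the other strand. The third matching window, of another Rbpj start, overlaps this one and holds the second of these matches at 205 bases before its own start. In Hey2 the matches began 207 bases before the start on the other strand and 3 bases before it on the gene's strand, the latter running across the start. The windows of Notch1, Notch4, Dll1, Dll4, Jag1 and Jag2 did not hold these letters, which describes only these windows.

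Levels were set against each other per kilobase of exon, since long transcripts collect more counts. In the 4-week WT libraries the target Hes1, a transcriptional repressor, had 90.6 ± 18.2 CPM per kilobase (SD, n = 5) and the ligand Dll4 76.1 ± 19.8, and their ranges overlapped. Hey1, a repressor of the same family, followed at 34.1 ± 3.07 and Dll1 at 29.5 ± 6.55, again overlapping, and both lay below every Dll4 value. Jag2 came next at 14.3 ± 0.84, separate from its neighbours in this order. Notch1 at 7.27 ± 1.38, Jag1 at 5.96 ± 1.2 and Notch4 at 5.67 ± 0.843 could not be ordered beyond their spread. Rbpj lay below them at 1.17 ± 0.613 and Hey2 below Rbpj at 0.0856 ± 0.133. The 4-week KO libraries gave the same first 5 places, and there Notch4, Notch1 and Jag1 also overlapped.

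**Figure D1:**
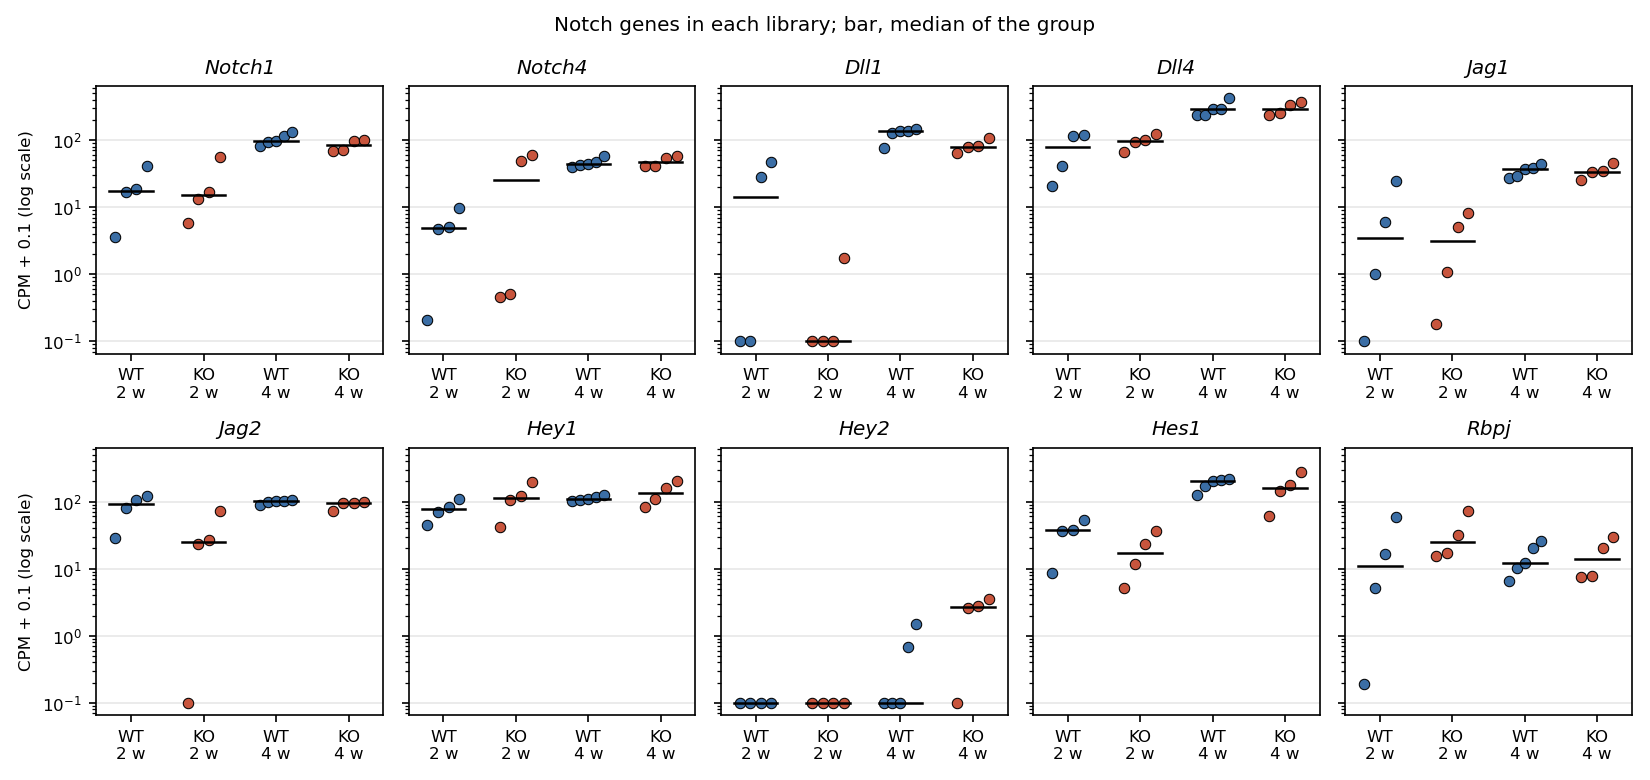
CPM plus 0.1 on a log scale for each of the 10 Notch genes; points are libraries (blue WT, red KO), and the bar is the group's median, with groups of 4, 4, 5 and 4 libraries. Genotypes overlap for every gene at both times, while Notch1, Dll1, Dll4, Jag1 and Hes1 lie higher at 4 weeks than at 2 weeks in both genotypes.

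The first question was whether loss of endoglin changed these genes 2 weeks after induction. No Notch gene passed the test, which does not show that they were unchanged: 8 of the 10 were tested and 0 passed an adjusted p of 0.05 (edgeR quasi-likelihood test, Benjamini-Hochberg over 10477 genes), where 0% of all genes passed. At an unadjusted p under 0.05 the count was also 0 of 8 Notch genes, against 2.63% of all genes. DESeq2 and limma voom likewise called 0 of these genes, while calling 149 and 12 genes in all. No Notch gene had groups that did not overlap, as 3.36% of genes did. The spread was wide: the median coefficient of variation of the 7 Notch genes above 10 CPM was 67.6% in WT and 78.2% in KO, near the 59.2% and 64.6% of all genes at that level.

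Notch4, an endothelial Notch receptor, was at 59.3 CPM in KO f1 and 49.4 CPM in KO m3, and at 0.354 and 0.404 CPM in KO f4 and m2. WT libraries had 0.105, 9.47, 5.0 and 4.69 CPM in f1, f4, m2 and m3. Of the 4 KO libraries, f1 and m3 lay above every WT library and f4 and m2 within the WT range, and the log2 fold change of 2.52 ± 2.06 (SE) had an unadjusted p of 0.26. It was 0.97 without KO f1, 1.13 without KO m3, 3.86 without WT f4 and 0.07 with voom. Notch1 (ENSMUSG00000026923, chr2:26457903-26516663, minus strand of GRCm38), the other receptor, had 3.53 to 41.5 CPM in WT and 5.73 to 56.4 CPM in KO, with a log2 fold change of 0.17 ± 0.99. Leaving out 1 library gave -0.37 to 0.80, the lowest value without KO m2, the highest library and one of those rich in neutrophil transcripts.

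Dll1 (ENSMUSG00000014773, chr17:15367354-15376872, minus strand, GRCm38), a ligand of the Delta family, was found in WT f4 at 46.5 CPM and WT m3 at 28.4 CPM and had 0 counts in WT f1 and m2. In KO it had 1.65 CPM (44 counts) in f1 and 0 counts in the other 3. A count of 0 allows up to 3 counts, which is 0.0790 to 0.101 CPM in the 5 libraries at 0. Dll1 was too sparse to enter the fit, and the exact two-sided permutation test gave p = 0.429. Jag2 stood at 104.5, 80.3, 118.8 and 28.6 CPM in WT f1, f4, m2 and m3, and at 26.4, 0, 71.0 and 23.3 CPM in the same KO libraries. Each KO library was below 3 of the 4 WT libraries, and the groups overlapped through KO m2, which lay above WT m3. The exact permutation p was 0.0571 and the log2 fold change -1.73 ± 1.69 (edgeR, unadjusted p 0.338). Without KO f4, where Jag2 had 0 counts, it was -1.06, and -0.61 with voom.

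Dll4 (ENSMUSG00000027314, chr2:119325784-119335962, plus strand) was the steadiest ligand in KO, at 67.4, 94.5, 101 and 124 CPM, against 113.5, 20.8, 118.3 and 41.4 CPM in WT. The log2 fold change was 0.40 ± 0.58, and 0.11 without WT f4 or 1.09 without WT f1. Jag1 ran from 0 in WT f1 to 24.2 CPM in WT m3, and the 95% interval of its log2 fold change ran from -12.96 to 11.93.

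The targets did not separate either. Hey1 had 45.0 to 107.9 CPM in WT and 41.4 to 194.2 CPM in KO (log2 fold change 0.59 ± 0.49, 95% interval -0.58 to 1.76, and 0.05 without KO m2). Hes1 (ENSMUSG00000022528, chr16:30064384-30067796, plus strand) had 8.54 to 52.3 CPM in WT and 5.04 to 36.3 CPM in KO (-0.78 ± 1.0, interval -3.15 to 1.58), -0.28 without KO f4, and -1.73 without KO m2 and m3. Hey2 (ENSMUSG00000019789, chr10:30832359-30842801, minus strand), a regulator of arterial fate, had 0 counts in all 8 libraries. Rbpj ranged from 0.0921 to 58.4 CPM in WT and from 15.3 to 73.1 CPM in KO (0.99 ± 1.48). That value was 2.09 without WT f4, 2.02 without WT m3, 0.49 without WT m2 and 0.62 without KO m3. The part of neutrophil RNA in these values was not tested; leaving out KO m2 and m3 left 0 of 9 Notch genes called. Summed neutrophil markers overlapped between the genotypes, with WT m3 at 110 CPM and KO f1 at 106.9 CPM. Summed arterial markers did not overlap at 2 weeks, at 461.1 to 625.2 CPM in WT and 245.9 to 383.5 CPM in KO. Nor did erythroid markers, at 61.5 to 179.6 CPM in WT and 277.7 to 1240 CPM in KO. The part of the arterial and erythroid sums in the 2-week values was not tested.

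**Figure D2:**
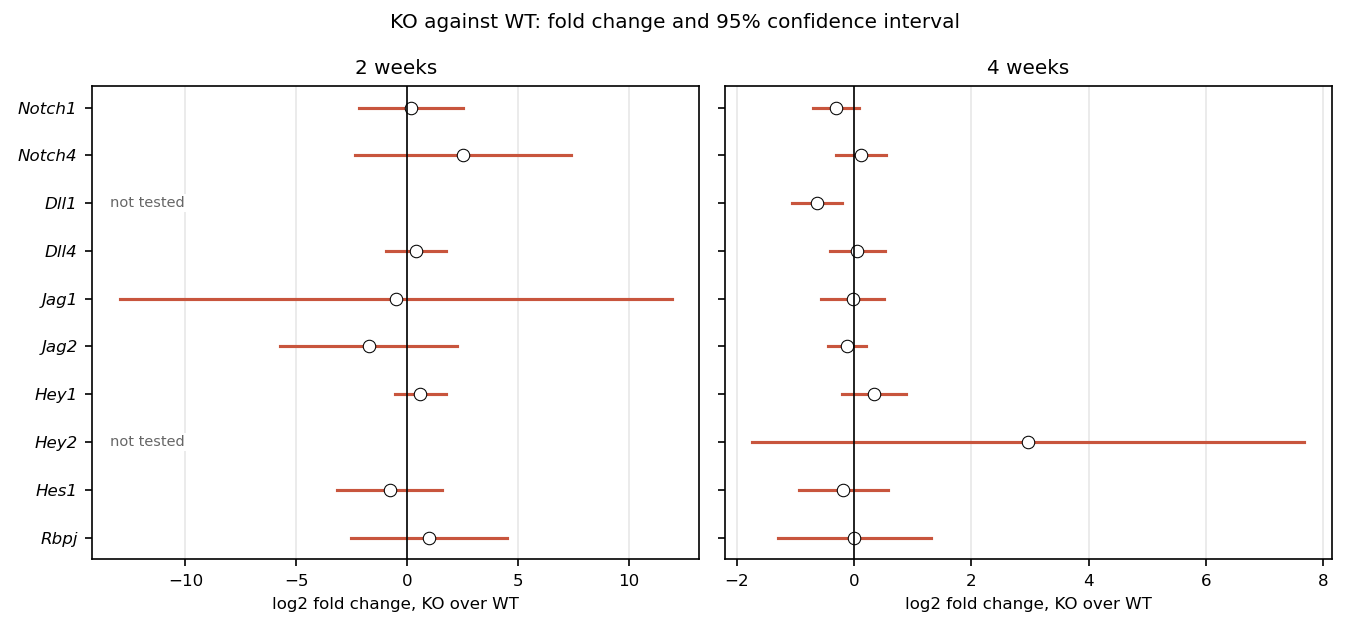
Log2 fold change of KO over WT for each Notch gene at 2 weeks (left) and 4 weeks (right) with 95% confidence intervals from edgeR; the horizontal scales of the panels differ. Open circles mark an adjusted p above 0.05, which holds for every gene here, and at 4 weeks the interval of Dll1, -1.06 to -0.21, is the one that leaves out 0.

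At 4 weeks all 10 Notch genes were tested, and the libraries were tighter, with a median coefficient of variation of 20.1% in WT and 22.6% in KO over 9 Notch genes (27.1% and 26% over all genes above 10 CPM). Again 0 Notch genes passed the adjusted threshold, where 0% of 15209 genes did (edgeR); DESeq2 called 0 of them and 17 genes in all, and voom 0 and 0. Dll1 had an unadjusted p under 0.05, as 2.77% of all genes did, which makes 1 of 10 Notch genes. The groups overlapped for all 10, while 1.19% of genes had groups that did not overlap. With 5 genes above 0 and 5 below, the median log2 fold change of the Notch genes was -0.01, against 0.01 over all genes.

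Dll1 was lower in KO than in 4 of the 5 WT libraries. WT f, f3, m1, m2 and m3 had 145.6, 76.2, 137.1, 134.8 and 128.2 CPM, and KO f2, m1, m2 and m3 had 62.9, 107.7, 81.2 and 77.9 CPM. WT f3 was the exception, inside the KO range. The log2 fold change was -0.63 ± 0.19 (SE, 95% interval -1.06 to -0.21), with an unadjusted p of 0.0087 and an adjusted p of 1 (edgeR); over the alternatives tried, the adjusted p lay between 0.356 (DESeq2) and 1. The exact permutation p was 0.0635, where 0.00794 is the smallest possible. Leaving out 1 library at a time gave -0.75 to -0.51.

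WT f3 and KO f2 and m3, the 3 lowest Dll1 libraries, all lay on the side of the first principal component with less stromal marker signal, and so did WT m3, at 128.2 CPM. With a term for the 2 sides, added after the data were seen, the log2 fold change of Dll1 was -0.58 (unadjusted p 0.0063, adjusted p 1). On the side with more stromal signal the 3 WT libraries (134.8 to 145.6 CPM) lay above the 2 KO libraries (81.2 and 107.7 CPM), and on the other side WT had 76.2 and 128.2 CPM against 62.9 and 77.9 CPM in KO. The Dll1 gene overlaps A930024N18Rik on the opposite strand over 867 exonic bases, and the strand setting of the counting is not given in the sources used here, so reads from this antisense partner cannot be told apart.

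The other ligands were close between the genotypes. Dll4 had 420.5, 233.6, 286.6, 235.2 and 290.4 CPM in WT and 249.8, 369.1, 335.6 and 237.4 CPM in KO, and the highest single value was in WT f. Its log2 fold change was 0.05 ± 0.21 with a 95% interval of -0.41 to 0.52. Jag2 had 90.2 to 105.8 CPM in WT and 72.3 to 96.7 CPM in KO (-0.12 ± 0.14, interval -0.44 to 0.21). Jag1, which can compete with Dll4 for Notch, had 26.9 to 44.1 CPM in WT and 25.2 to 44.8 CPM in KO (-0.02 ± 0.24, interval -0.56 to 0.52).

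As a share of the 4 ligands per kilobase, Dll4 made up 60.0% ± 4.95 (SD, n = 5) in WT and 66.6% ± 3.44 (n = 4) in KO at 4 weeks. Dll1 made up 23.4% ± 3.86 in WT, from 18.0% to 28.0%, and 16.9% ± 1.77 in KO, from 15.1% to 18.8%. The ranges of Dll1 overlapped through WT f3 alone, the library at 18.0%. Jag2 had 11.7% ± 2.41 and 11.5% ± 2.82, and Jag1 4.90% ± 1.43 and 5.08% ± 0.568. At 2 weeks the Dll4 share did not overlap between the genotypes, at 47.5% ± 21.8 (n = 4) in WT, from 19.2% to 66.3%, and 83.7% ± 11.8 (n = 4) in KO, from 71.7% to 96.6%. Dll1 then made up 16.3% ± 19.6 in WT and 0.423% ± 0.847 in KO, and Jag2 31.4% ± 10.8 and 13.4% ± 11.7. The CPM of Dll4, Dll1 and Jag2 overlapped at that time, and with 0 counts of Dll1 in 5 libraries and of Jag2 in KO f4 the shares of the other ligands there are raised by construction. At 4 weeks the Dll4 shares overlapped. Dll4 was the most abundant ligand per kilobase in 9 of 9 libraries at 4 weeks, and in 3 of 4 WT and 4 of 4 KO libraries at 2 weeks; the exception was WT f4, where Jag2 led. Shares were compared without a test, since the 4 must add up to the whole.

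**Figure D3:**
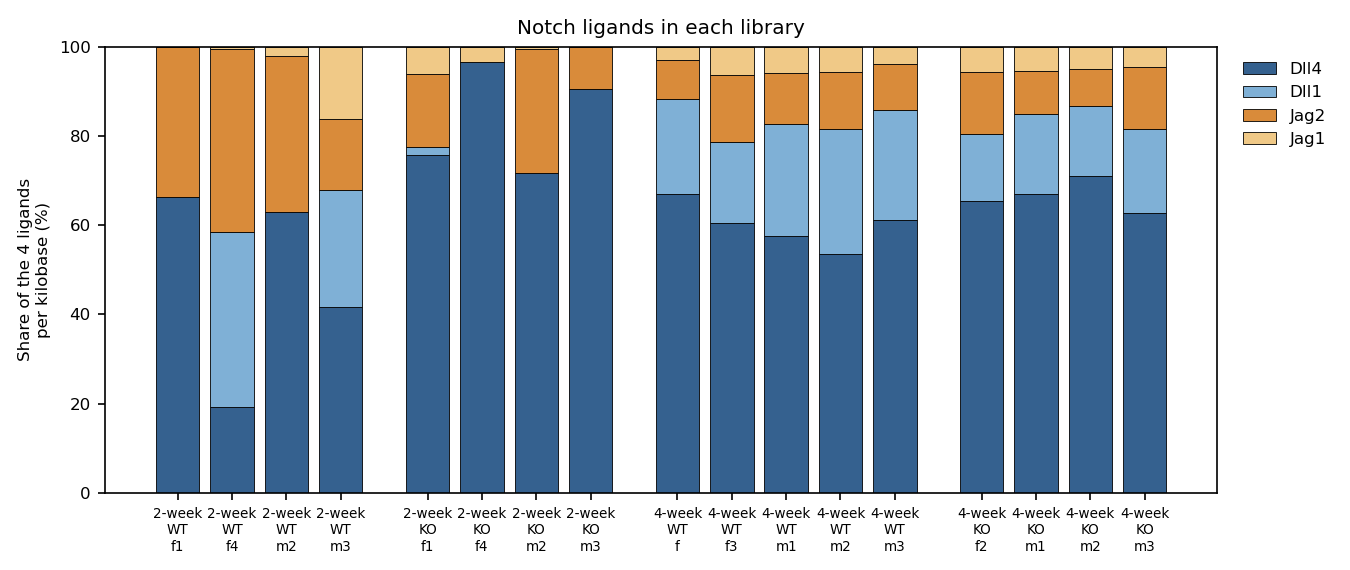
Share of Dll4, Dll1, Jag2 and Jag1 in their summed CPM per kilobase (vertical axis, %) for each of the 17 libraries. At 4 weeks the Dll1 band spans 18.0% to 28.0% in the 5 WT libraries and 15.1% to 18.8% in the 4 KO libraries, and at 2 weeks it is at 0 in 5 of 8 libraries, while the Dll4 band is taller in each KO library than in any WT library.

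The receptors at 4 weeks were Notch1 at 116, 82.2, 92.4, 130.9 and 96.1 CPM in WT and 71.2, 100.3, 97.2 and 68.8 CPM in KO. KO f2 and m3 were the lowest of the 9, and KO m1 and m2 lay within WT, giving a log2 fold change of -0.31 ± 0.17 (95% interval -0.70 to 0.08, unadjusted p 0.107). Notch4 had 39.3 to 56.9 CPM in WT and 40.5 to 56.8 CPM in KO (0.12 ± 0.19, interval -0.31 to 0.55). The 3 libraries with most Notch4, WT f3 and KO f2 and m3, were the 3 with least Notch1. Those 3 lie on the side of the first principal component with less stromal marker signal. WT m3, also on that side, had 96.1 CPM of Notch1 and 43.4 CPM of Notch4. Both values lie within the ranges of the other side, 92.4 to 130.9 CPM and 39.3 to 46.8 CPM. Notch1 overlaps 0610009E02Rik over 1068 exonic bases and Gm13568 over 414 on the other strand.

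Among the targets at 4 weeks, Hey1 varied more in KO than in WT. It had 105.8, 126.3, 115.3, 108.6 and 100.2 CPM in WT and 158.2, 108.4, 204.9 and 83.0 CPM in KO, so that KO libraries held the highest values and the lowest. The log2 fold change was 0.35 ± 0.24 (95% interval -0.20 to 0.90, unadjusted p 0.186) and 0.08 without KO m2. Hes1 had 203.5, 167.7, 215.3, 209.5 and 127.1 CPM in WT and 271.7, 174.9, 141.8 and 61.1 CPM in KO, again with the extremes in KO (-0.18 ± 0.33, interval -0.93 to 0.58). It was -0.54 without KO f2 and 0.08 without KO m3.

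Hey2 was at the edge of detection. WT f had 47 counts (1.39 CPM) and WT m3 14 counts (0.572 CPM), with 0 in the other 3 WT libraries. KO f2, m1 and m3 had 54, 67 and 90 counts (2.64, 2.50 and 3.41 CPM), and KO m2 had 0. The 3 detected KO libraries lay above every WT library, but the log2 fold change of 2.97 ± 2.07 had an unadjusted p of 0.186, and the exact permutation p was 0.143. It became 5.85 without WT m3. Rbpj, the shared nuclear partner of the receptors, had 25.6, 6.53, 10.2, 20.4 and 12.1 CPM in WT and 7.37, 19.9, 29.1 and 7.73 CPM in KO (0.01 ± 0.57, interval -1.29 to 1.31). The 4 libraries with most Rbpj, WT f and m2 and KO m1 and m2, were all on the side with more stromal marker signal. WT m1 of that side, at 10.2 CPM, lay below WT m3 of the other side, at 12.1 CPM, so the sides overlapped. The part of the sides in the level was not tested. Rbpj also has 2 named pseudogenes.

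Whether the KO effect itself differed between the times was asked in 1 fit of the 17 libraries. This difference, 4 minus 2 weeks, passed for 0 of 10 Notch genes, against 0.0764% of 15703 genes. Dll1 came closest, with a difference of 5.53 ± 2.66 on the log2 scale (unadjusted p 0.0567, adjusted p 0.527), a size that rests on 3 KO libraries with 0 counts at 2 weeks. It became 11.77 without 2-week KO f1, a size that is not read because the 2-week KO libraries left are all at 0. Notch4 followed at -2.40 ± 1.78 (adjusted p 0.944), and was -1.42 without 2-week KO m3 and -0.08 with voom. Hey2, with 0 counts throughout the 2-week libraries, entered this fit with a p of 1 and no SE, so its fitted value is not read; without it the count is 0 of 9.

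The larger contrast was between the times, where sampling time, library quality and any batch cannot be told apart. In WT, Notch1, Dll4 and Hes1 were higher at 4 weeks, so 3 of 10 Notch genes passed, against 5.03% of all genes in that direction (edgeR). Notch1 was higher by 2.17 ± 0.60 on the log2 scale (adjusted p 0.0446), Dll4 by 1.70 ± 0.42 (adjusted p 0.0281) and Hes1 by 2.24 ± 0.60 (adjusted p 0.0415). In KO, Hes1 passed, at 2.75 ± 0.63 (adjusted p 0.0194), which is 1 of 10 against 4.84% of all genes. Dll1 and Dll4 in KO stood at 8.11 ± 2.51 (adjusted p 0.0679) and 1.26 ± 0.43 (adjusted p 0.0919). The Dll1 value rests on 3 of 4 KO libraries at 0 counts at 2 weeks, and DESeq2 (adjusted p 0.000222) and voom (0.0283) called it. Without 2-week KO f1 the fit gave 14.16 (edgeR, adjusted p 0.0409). All 2-week KO libraries left are then at 0, so that size and its p are not read. The median of all genes was itself 0.42 in WT and 0.49 in KO, so the excess over it was 1.75, 1.29 and 1.83 for Notch1, Dll4 and Hes1 in WT and 2.27 for Hes1 in KO. That median was 1.38 and 1.66 with voom, and 0.003 and -0.024 over genes with at least 10 counts in every library, so the excess depends on the setting.

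These calls sat near the threshold. Leaving out any 1 of the 9 WT libraries took Notch1 and Hes1 in WT out of the call, with an adjusted p of 0.0502 to 0.0934 and of 0.0609 to 0.0844. Dll4 in WT was lost without 2-week m3 or 4-week f, f3 or m3 (adjusted p 0.051 to 0.0727). Hes1 in KO was lost without 2-week f1 (0.0551) or 4-week f2 (0.0716). Every one of these estimates kept its sign.

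The levels show how far the times lay apart. Every 4-week WT library was above every 2-week WT library for 6 Notch genes (Notch1, Notch4, Dll1, Dll4, Jag1 and Hes1), against 16.1% of all genes. In KO this held for 6 as well (Notch1, Dll1, Dll4, Jag1, Jag2 and Hes1), against 21.4%. Notch4 was on the WT list and not the KO list, and Jag2 the reverse. Hey1 differed less between the times, with overlapping levels of 45.0 to 107.9 CPM at 2 weeks and 100.2 to 126.3 CPM at 4 weeks in WT (0.25 ± 0.38), and an estimate of -0.04 ± 0.40 in KO. Estimates below 0 were also found for Jag2 in WT (-0.05 ± 0.99) and Rbpj in both genotypes (-0.54 ± 1.09 in WT, -1.13 ± 1.18 in KO). Hey2 went from 0 counts at 2 weeks to 61 counts over the WT group at 4 weeks, 47 of them in WT f, and 211 over the KO group.

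At 2 weeks 4 Notch genes (Dll1, Jag1, Jag2 and Hey2) had 0 counts in at least 1 library, 15 of 80 values, where 60.9% of genes had such a library. At 4 weeks this was Hey2 alone, 4 of 90 values, against 20.8% of genes. Summed endothelial markers also differed, at 2803 to 4493 CPM at 2 weeks and 6342 to 9283 CPM at 4 weeks, and summed arterial markers at 245.9 to 625.2 CPM and 735 to 948.7 CPM; their part in the higher Notch gene levels was not tested.

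**Figure D4:**
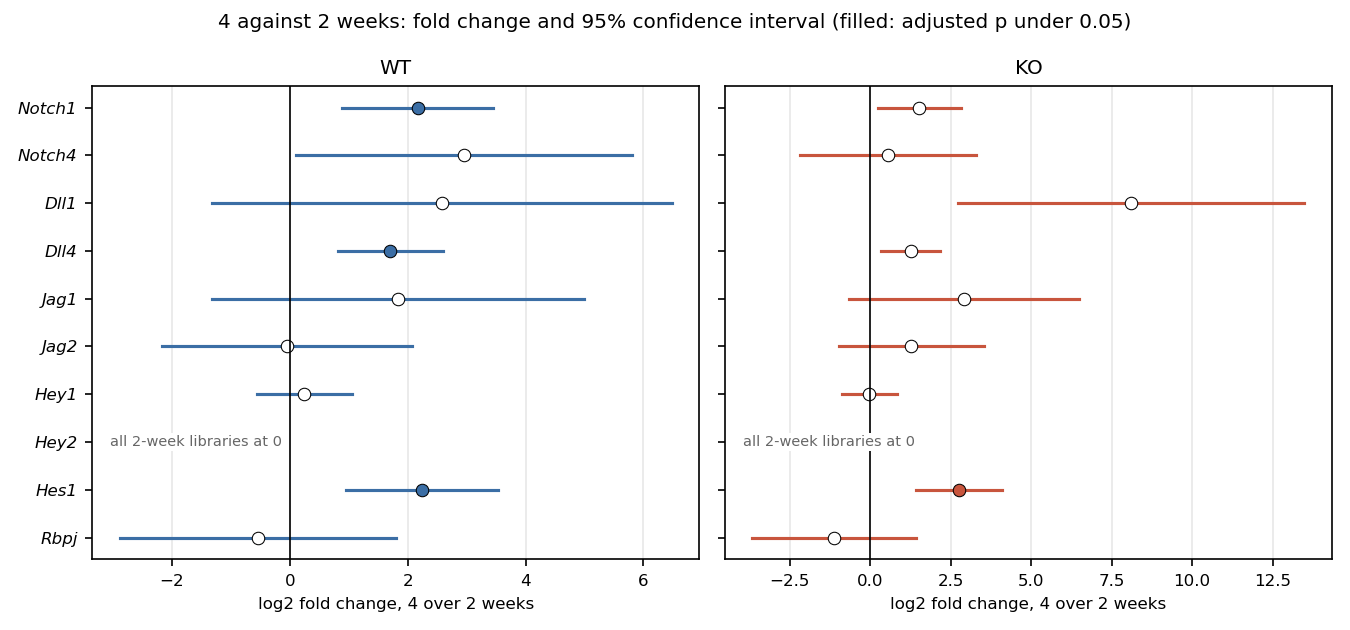
Log2 fold change of 4 over 2 weeks for each Notch gene in WT (left) and KO (right) with 95% confidence intervals from edgeR; the horizontal scales differ, and filled circles have an adjusted p under 0.05. Notch1, Dll4 and Hes1 are filled in WT and Hes1 in KO; Hey2 is not drawn because all its 2-week libraries were at 0.

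The rest of the pathway was read from 56 further genes in 9 roles, of which 42 were tested at 2 weeks and 50 at 4 weeks. The count that passed in either genotype comparison was 0 in each direction (edgeR), with 1 gene at an unadjusted p under 0.05 each time. Estimates were below 0 for 27 of 42 at 2 weeks (median -0.47, all genes -0.06) and for 33 of 50 at 4 weeks (median -0.18, all genes 0.01). At 4 weeks this held for 7 of 7 tested regulators of receptor turnover, such as Dtx2 (-0.49 ± 0.22), a Deltex ubiquitin ligase, and for 5 of 5 glycosyltransferases that modify the receptors, where 48.7% of all genes were below 0. These roles are named for their one-sided signs, and signs of genes measured in the same libraries are not independent. Nuclear cofactors were below 0 for 6 of 10 and targets for 2 of 4. At 2 weeks 3 of 6 turnover genes were below 0, and Dtx2 stood at 5.2 ± 3.96. At 4 weeks the receptors below 0 included Notch2 (-0.51 ± 1.5) and Notch3 (-1.13 ± 0.55, unadjusted p 0.0726), the latter typical of mural cells and at 10.4 to 43.0 CPM in WT and 4.69 to 14.8 CPM in KO. Proteases that cut the receptors were split 5 to 5, and Psen2, a gamma-secretase subunit, had 0.67 ± 0.32.

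Of 9 genes of arterial endothelium near Notch, 8 had estimates below 0 at 2 weeks, against 53.1% of all genes, and 4 at 4 weeks, against 48.7%. The difference between the times passed for 0 of the 9, with the smallest adjusted p, 0.347, for Sox17. The arterial marker sum, which lay lower in KO at 2 weeks, is made of 6 of these 9 genes and is not independent of them. At 2 weeks Sox17, an arterial transcription factor, had the smallest p of the 56 genes (-0.73 ± 0.25, unadjusted p 0.0207, adjusted p 1). Its levels were 250.6 to 423 CPM in WT and 175.6 to 300.8 CPM in KO. At 4 weeks Sox17 stood at 0.13 ± 0.13. Nrp1, a co-receptor for VEGF and semaphorins, had the smallest p there (-0.44 ± 0.17, unadjusted p 0.0255, adjusted p 1), at 1253 to 1718 CPM in WT and 829.1 to 1399 CPM in KO. Gja5, an arterial connexin, had -0.49 ± 0.23 (unadjusted p 0.0609). Among the genes with the smallest p at 2 weeks were also Fbxw7 (-4.70 ± 2.49), which targets the cut receptor for degradation, and Pofut1 (-4.02 ± 2.52), which adds fucose to the receptor. Fbxw7 was -2.76 without WT m3, and Pofut1 was -7.18 without KO f4, -2.04 without WT m2 and -2.12 without KO m2 and m3.

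Between the times, Nrp1 was higher at 4 weeks in both genotypes, by 1.44 ± 0.22 in WT (adjusted p 0.00168) and 1.08 ± 0.23 in KO (adjusted p 0.0145). Sox17 was higher in KO, by 1.04 ± 0.19 (adjusted p 0.00571). These were the calls among the 51 pathway genes tested, 1 in WT and 2 in KO, with 0 lower. Over all genes 5.03% in WT and 4.84% in KO were higher, so these counts do not exceed the background. Without the 2-week KO males m2 and m3 the adjusted p in KO was 0.106 for Nrp1 and 0.0601 for Sox17.

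**Figure D5:**
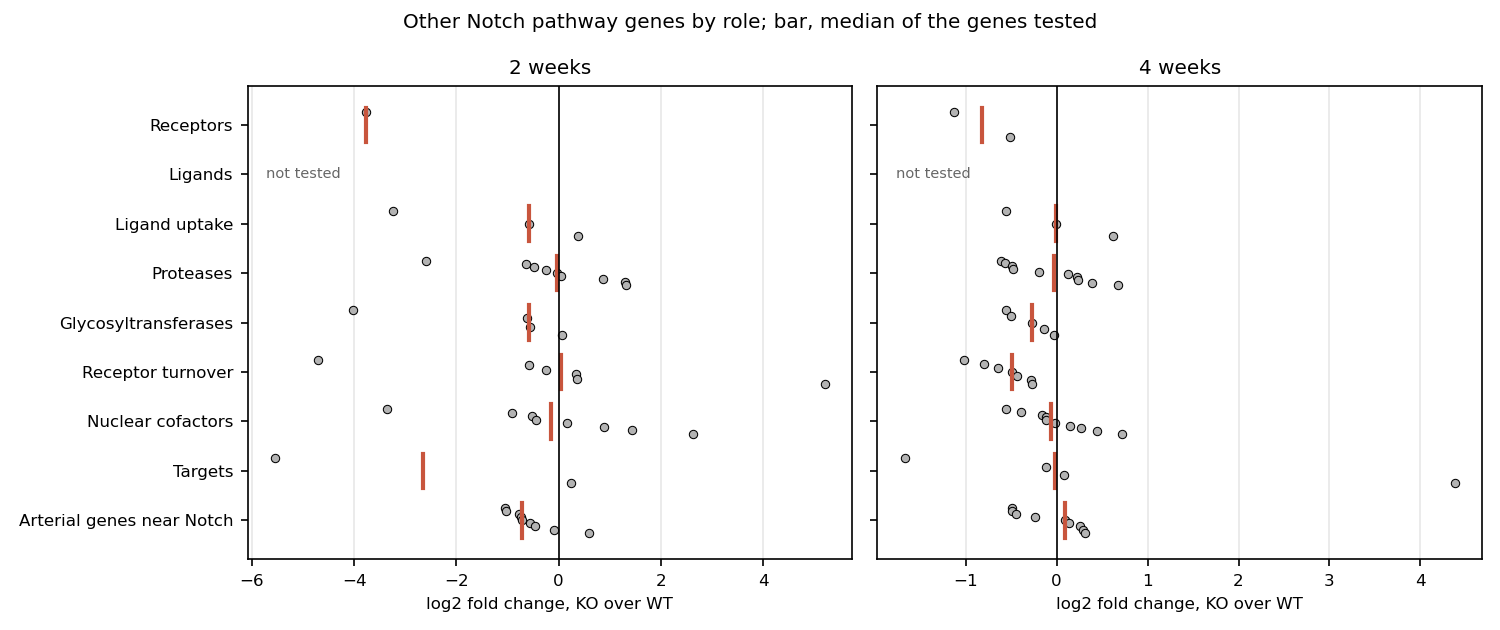
Log2 fold change of KO over WT at 2 weeks (left) and 4 weeks (right) for the other Notch pathway genes, by role; grey points are genes that were tested and red bars their medians, and the horizontal scales differ. At 4 weeks all 7 receptor turnover genes and all 5 glycosyltransferases lie below 0, with 0 of them passing the test. Signs of genes from the same libraries are not independent.

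Over the 9 libraries of 4 weeks, log2 CPM of 4714 other genes was set against that of 1 ligand and 2 targets to name the genes most alike; these correlations are descriptions and share the libraries and their sides of the first principal component. Nrd1 (Pearson r 0.918), Gm14207 (0.912) and Pdxdc1 (0.904) were most like Dll4. Gm14207 overlaps Dll4 on the other strand over 214 exonic bases, so shared reads cannot be told apart from a shared pattern. Gbp2 (0.882), Thap7 (0.864) and Depp1 (0.854) were most like Hey1, and Fam104a (0.923), Mgat2 (0.904) and Ggnbp2 (0.871) most like Hes1. No Notch gene was among these 9.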

How the data were processed

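The submitters' processing notes name cutadapt, STAR and HTSeq 0.6.1p1 and the builds GRCm38 and mm10; settings, annotation and strand are not given in the sources used here. The authors deposited whole-number read counts per Ensembl gene, 1 file per library. Of 49585 identifiers, 49326 were paired with a symbol, and 22669 had 0 counts throughout. Exon lengths and overlaps came from GENCODE M21 on GRCm38.

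Genes passing filterByExpr were tested with edgeR 4.0.16 (R 4.3.3; TMM, robust quasi-likelihood, sex and genotype) at each time alone, and in 1 fit of group means plus sex for contrasts across times, with Benjamini-Hochberg adjustment over all genes and a threshold of 0.05. The SE is the absolute log2 fold change over the square root of F. Single values were tested by exact two-sided permutation of log2(CPM + 0.1). The Notch genes and the pathway and marker lists were chosen with earlier results of these data known. The text names all 10 Notch genes, Eng, the 4 pathway genes with the smallest p per genotype comparison, any that passed, and the 3 genes most like Dll4, Hey1 and Hes1; 1 of the pathway genes this rule picks is not reported here. Notch2, Notch3 and further genes outside that rule were named after their values were seen. Alternatives were DESeq2 1.42.0, limma 3.58.1 voom, other scalings and filters, no sex term, a replicate block and left-out libraries. The fits were tested on simulated data. Libraries of a group differed well beyond sampling noise (chi-square over its degrees of freedom 47.1 or more), so none was counted as a duplicate. Limits for 0 counts cover counting error only.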

Additional observations from a re-analysis of the deposited data

Results flagged for a closer look

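Single libraries lay far from the rest of their group in 3 of 42 groups of 4 or 5 libraries, examined for Eng and the 10 Notch genes. For normally distributed values chance alone marks about 1 in 20 groups, a rate that need not hold for sparse CPM values. Dll1 in the 2-week KO library f1 was at 1.648 CPM, with 0 in the other 3. Dll1 in the 4-week WT library f3 was at 76.24 CPM, against 128.2 to 145.6 CPM in the other 4 (gap over range 0.750). Jag2 in the 4-week KO library m2, which also kept most Eng, was at 72.27 CPM, against 94.79 to 96.67 CPM in the other 3 (gap over range 0.923).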

How the results depend on the processing

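Of 857 alternative values for 47 fold changes of the Notch genes, 773 kept their direction and their side of the threshold, 46 changed sign, 29 lost a call and 9 gained one. In the genotype comparisons and in the difference between them, 0 Notch genes were called under every alternative run, and DESeq2 called 1303 genes for that difference against 12 in edgeR; the cause was not tested. The precision of 2-week values is limited by the spread, with a median biological coefficient of variation of 119% against 48.8% at 4 weeks. Same-numbered libraries of the 2 genotypes correlated between -0.024 and 0.160, below 0.1 in all pairs but 1, the m3 pair of 4 weeks. Low correlations in noisy libraries cannot exclude pairing, so pairing was neither shown nor excluded. With a replicate block Jag1 at 2 weeks became 0.002, Notch4 and Rbpj at 2 weeks 0.231 and 2.433, and Rbpj at 4 weeks -0.092. The count of calls stayed at 0. Without the 2-week KO males m2 and m3, Jag1 at 2 weeks became 3.835, the differences of Notch1 and Jag1 0.064 and -1.0, and Hey1 over time in KO 0.127. With voom, the 4-week values became -0.007 (Dll4), 0.023 (Jag1), 0.093 (Hes1) and -0.019 (Rbpj), and over time 0.317 (Jag2, WT), 0.553 (Rbpj, WT) and 0.055 (Hey1, KO). At 4 weeks Dll4 became -0.007 in the fit of all libraries, and Jag1 0.012 with upper quartile scaling and 0.011 with the term for the 2 sides. Hey1 over time in KO became 0.018 with DESeq2 and with its size factors in edgeR, and 0.051 with at least 10 counts in every library. The 3 calls over time in WT became 1 without a low-count filter (Dll4), 2 with voom (Hes1 lost), 2 without the sex term (Notch1 lost) and 4 with DESeq2 (Notch4 added). The 1 in KO, Hes1, became 4 with DESeq2 (Dll1, Notch1 and Dll4 added), 2 with voom (Dll1 and Jag1, Hes1 lost) and 2 with at least 10 counts (Dll4 added). Leaving out 1 library gave 0 to 1 calls in WT and 0 to 2 in KO. The same left the 2-week values of Notch1 at -0.366 to 0.797 and Jag1 at -3.305 to 2.279. It left the 4-week values of Dll4 at -0.062 to 0.222, Jag1 at -0.159 to 0.093, Hes1 at -0.539 to 0.079 and Rbpj at -0.359 to 0.414. The differences ran from -1.048 to 0.158 (Notch1), -0.654 to 2.110 (Jag1) and -0.569 to 0.264 (Hey1), and the values over time from -0.369 to 0.139 (Jag2, WT), -1.068 to 0.667 (Rbpj, WT) and -0.329 to 0.526 (Hey1, KO). The causes were not tested.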

Other observations

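In the 4 KO libraries of 4 weeks, Hey1 and the Eng that remained had the same order, chosen after the values were seen and without a test. KO m2 had 204.9 CPM of Hey1 and 1647 CPM of Eng, f2 158.2 and 873.5, m1 108.4 and 321.6, and m3 83.0 and 273.9. In the 4 KO libraries of 2 weeks, m2 again had most of both (194.2 CPM of Hey1 and 347.2 CPM of Eng) and f4 came next (120.0 and 266.0), while f1 had more Hey1 than m3 (106.5 against 41.4 CPM) and less Eng (225 against 259.1 CPM). Hes1 did not share the 4-week order: it was highest in f2, at 271.7 CPM, and lower in m2, at 141.8 CPM.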
